A study of Mus musculus with 2 samples.

Results

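Chil3, Retnla, Ccl24, Arg1, Mrc1, C3, Hp, Sirpb1c and Prtn3 are effector genes of macrophages and other myeloid cells, taken here by symbol from the gene list of a single-cell experiment on intestinal innate lymphoid cells (ILCs). All 9 were among the 31053 features, each with 1 row. They were chosen by their measured transcript counts in the libraries of both genotypes, so the contrasts between genotypes below are descriptions and not tests. The 2 droplet libraries, made with a 3′ tag chemistry, came from Zfp36_KO mice (Zfp36-/-, without tristetraprolin) and from WT mice, both C57BL/6, with no treatment given in the labels. Both were prepared from Live CD45+ Lin- CD3- TCRβ- CD90.2+ CD127+ cells sorted from small-intestinal lamina propria, and each library is a pool of 4 mice. The age and sex of the mice, the deleted part of Zfp36 and whether littermates were used are not given in the sources used here, and mice within a pool cannot be told apart.

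Alternatively activated macrophages respond to IL-4 and IL-13, cytokines that type 2 lymphocytes such as group 2 ILCs (ILC2) secrete, through the IL-4 receptor and the transcription factor STAT6. Chil3, Retnla, Arg1, Mrc1 and Ccl24 are classical products of that programme in the mouse, whereas C3 and Hp are complement and acute phase genes, Prtn3 is a granule protease gene of myeloid precursors, and Sirpb1c belongs to the signal-regulatory proteins. Tristetraprolin, the Zfp36 product, binds AU-rich elements in the 3′ untranslated region (UTR) of transcripts, many of them inflammatory, and speeds their decay.

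The Zfp36_KO library held 3522 cell barcodes and 27733804 unique molecular identifiers (UMIs, each a counted transcript molecule), and the WT library 3593 barcodes and 24721524 UMIs. After filtering, 3291 Zfp36_KO and 3352 WT cells remained, with medians of 5317 and 5290 UMIs. There was 1 library per genotype, so no difference has a replicate check, and every interval below is a 95% interval that covers counting error only. Zfp36 itself was at 377 CPM (UMIs of the gene scaled by all UMIs of the cells) in Zfp36_KO cells, against 634 CPM in WT cells, and at 991 CPM against 1644 CPM in macrophages. Since the deleted part is not known and only 3′ tags were counted, these reads do not check the genotype. Y-linked UMIs were found in 519 Zfp36_KO cells and in 4 WT cells, so the pools also differed in sex. Leaving out cells with Y-linked UMIs kept the direction of the macrophage ratios of all 8 members measured there. Cells of male mice without a counted Y-linked UMI stay in, so this does not make the pools alike in sex. The part of sex in the differences was not tested.

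Clusters were named from lists of marker genes that hold no member. C1q-positive macrophages, a cluster with all 14 macrophage markers passing, numbered 172 in Zfp36_KO and 56 in WT, with medians of 12613 and 6711 UMIs. Of these, 35 Zfp36_KO and 3 WT cells had fewer than 5 UMIs over C1qa, C1qb and C1qc. In 29 Zfp36_KO and 1 WT cell there was none, so macrophages below means the cluster as a whole. Plet1-positive dendritic cells numbered 216 in Zfp36_KO and 34 in WT. Other clusters rich in Cd74, led by B-cell genes or by Xcr1, held 18 Zfp36_KO and 31 WT cells. ILC2-like cells numbered 1024 in Zfp36_KO and 546 in WT. The sort selected lymphoid surface markers, so these myeloid cells are a minority of unstated origin within it. T-cell-like cells numbered 18 in Zfp36_KO (0.547% of kept cells) and 1065 in WT (31.8%), although the stated sort was for CD3- TCRβ- cells. The libraries therefore differed in content. The macrophage class was not of the same makeup in both libraries. The summed macrophage markers were at 17845 CPM in Zfp36_KO and 31070 CPM in WT. The 8 monocyte markers gave 906 CPM in Zfp36_KO and 823 CPM in WT, with Ly6c2, Vcan and Ace at 0 in WT. Of the 377 WT UMIs behind that sum, 285 lay in 2 cells that also held nearly all WT Retnla, and the other 54 WT macrophages were at 219.5 CPM. The ILC2 markers summed to 653 CPM in Zfp36_KO and 321 CPM in WT, so lymphoid transcripts were present in these droplets. Plasma cell markers summed to 1384 CPM in Zfp36_KO and 249 CPM in WT, and T cell markers to 248 and 1436 CPM. Cd3e, a T-cell gene, was present in 3 of 172 Zfp36_KO and 18 of 56 WT macrophages. No granulocyte progenitor marker (Mpo, Elane, Ctsg, Ms4a3, Fcnb) had a UMI in macrophages of either library, and of the 10 neutrophil markers 5 had a UMI in Zfp36_KO (52.4 CPM in sum) and 1 in WT (37.1 CPM), with S100a9, Ngp, Camp, Ltf and Ly6g at 0 in both. A cluster of 15 cells led by S100a9 and S100a8, all of them Zfp36_KO, stayed unnamed and apart from the macrophages. Whether this makeup contributes to the differences below was not tested beyond the divisions of the class that are given.

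Over all kept cells, 7 of the 9 genes (Chil3, Ccl24, Mrc1, C3, Hp, Sirpb1c and Prtn3) were 2-fold or more higher in Zfp36_KO, where 8.32% of the 12167 genes with at least 50 UMIs were. Retnla alone was 2-fold or more lower, where 3.33% of those genes were, and Arg1 was within 2-fold. The rule that chose the members used these contrasts, so nothing is read from the counts. They also compare unlike mixtures of cells, with macrophages at 5.23% of Zfp36_KO and 1.67% of WT cells. Within macrophages, 8 members reached 50 UMIs and 5 of them were 2-fold or more higher in Zfp36_KO (6.98% of 6949 genes), while 1 was lower (2.92%). The median log2 ratio of those 8 members was 3.03, with genes at 0 in WT set to 3 counts, against 0.13 for all 6949 genes (0.14 for the 12167 genes over all cells). Mrc1 left the higher group once the comparison was made within macrophages. In dendritic cells Sirpb1c alone reached 50 UMIs and was not 2-fold apart (6.95% of 7874 genes passed 2-fold upward and 2.45% downward). In ILC2-like cells the same held for Arg1 (3.42% of 8879 genes passed upward, 1.1% downward).

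**Figure D1:**
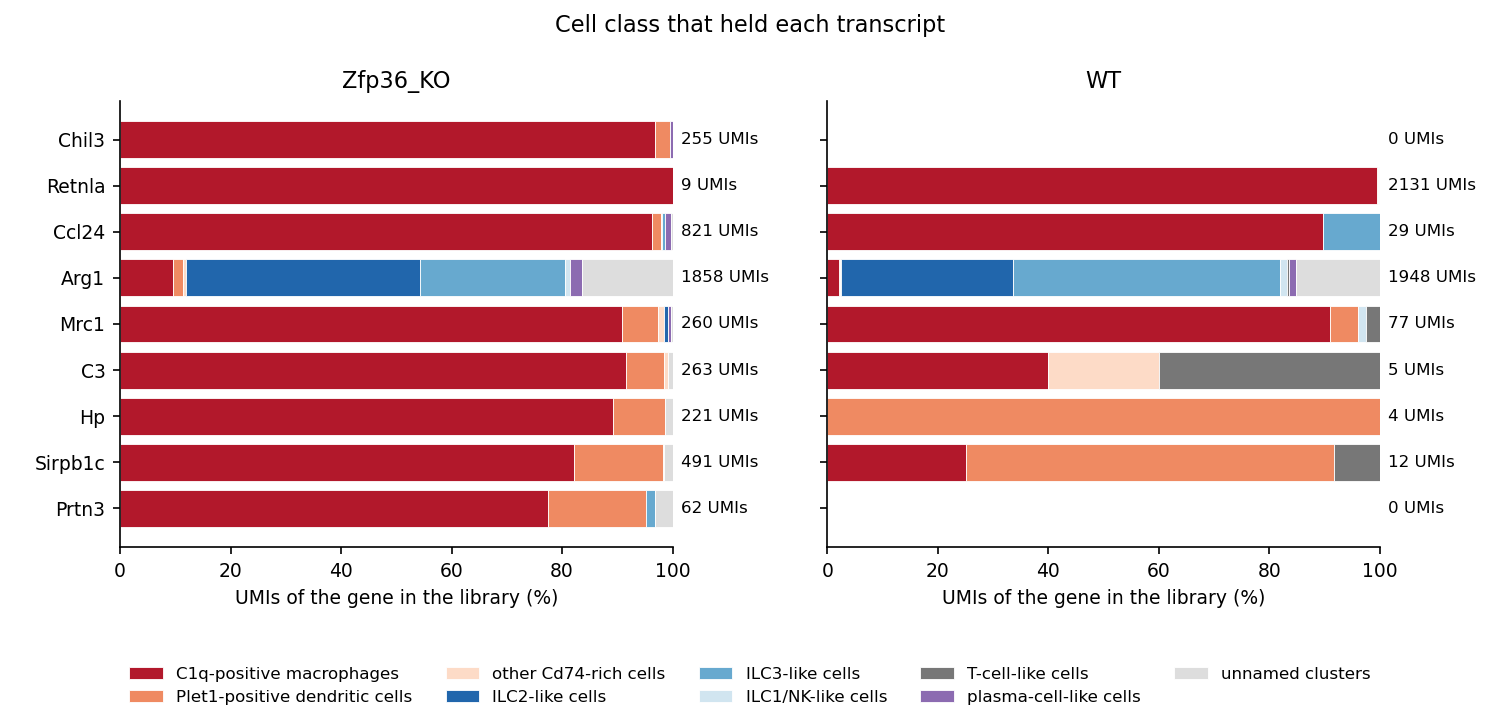
Share of the UMIs of each gene (horizontal axis, percent of the UMIs of that gene in the library) held by each cell class in Zfp36_KO and WT, with total UMIs at the right of each bar. Macrophages held most UMIs of 8 genes in Zfp36_KO, and ILC2-like and ILC3-like cells held most of Arg1 in both libraries; bars over 5 or fewer UMIs carry little information.

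In Zfp36_KO, macrophages held between 77.4% (Prtn3) and 100% (Retnla) of the UMIs of the 8 genes other than Arg1. ILC2-like, ILC3-like and T-cell-like cells, which should lack these 8 transcripts, served as background. Among 2159 such cells in Zfp36_KO (median 4962 UMIs) and 2604 in WT (median 5069 UMIs), none of the 8 genes was found in more than 5 cells of a library. No Chil3 and no Hp UMI occurred in them at all, and the upper end of the exact binomial interval was 0.171% of cells in Zfp36_KO and 0.142% in WT.

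Chil3 (ENSMUSG00000040809, chr3:106147554-106167564, minus strand, GRCm38) encodes the secreted chitinase-like protein Ym1. It had 255 UMIs in 48 Zfp36_KO cells and 0 UMIs in WT cells. Of these, 247 UMIs lay in 45 of 172 Zfp36_KO macrophages (98.8 CPM), against 0 in 56 WT macrophages. A count of 0 there allows up to 5.36% of cells with a UMI by a floor of 3 counts, and up to 6.38% by the exact binomial interval. Set against the floor of 3 counts over the class, the macrophage level was at least 15.1-fold higher in Zfp36_KO. The transcript was unevenly spread, since 1 cell held 48 UMIs (18.8%), the 10 richest cells held 60.0%, and 7 cells sufficed for 50% of the total. Dendritic cells held 7 UMIs in 2 Zfp36_KO cells and 0 in WT. Chil4, the close paralogue with which Chil3 can share reads, had 0 UMIs in macrophages of both libraries. The nearest genes in pattern, by Pearson r of log2(CPM + 10) over 28 cluster sums of at least 20 cells in 1 library, were Bvht, Trem2 and C3 (all r = 0.99). For genes held mostly by macrophages, here and below, r rests largely on the macrophage sums, few of the 28 points. The members were chosen with the contrast between those sums known, so their likeness to each other is not a separate result.

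Retnla (ENSMUSG00000061100, chr16:48842551-48844461, plus strand) encodes the secreted resistin-like molecule alpha and went the other way. It had 9 UMIs in 1 Zfp36_KO cell, a macrophage, and 2131 UMIs in 13 WT cells. A single WT macrophage held 1866 UMIs, which was 87.6% of the WT total and 7.94% of all 23488 UMIs of that cell. A second WT macrophage held 254 UMIs of its 15471, and the other 11 WT cells had 1 UMI each. Those 11 were scattered, with 2 among T-cell-like, 2 among ILC3-like and 1 among ILC2-like cells. In macrophages the level was 3.60 CPM in Zfp36_KO and 4630 CPM in WT, a log2 ratio of -10.33 (-11.46 to -9.40). Without the pair of Retnla-rich WT cells, the counts were 9 UMIs in Zfp36_KO and 1 UMI in WT, and the log2 ratio became 0.59, so the difference rests on those cells. Its nearest genes in pattern, Gm31243, Kcng2 and Gpx3 (r from 0.96 to 0.97), share that dependence on few cells.

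The promoter of Retnla is shown because it carries the kind of site that links the gene to STAT6. In the RefSeq promoter table (GRCm38.p6, 250 bases before to 50 after the start), which holds 6 of the 9 members, the STAT6-type inverted repeat, TTC and GAA with 4 bases of any kind between them, read on both strands, occurred in Retnla alone of the 6 and in 6.99% of 27025 promoters. The window lies at chr16:48842454-48842483, plus strand, with the repeat in capitals. The repeat begins 145 bases before the RefSeq start site, which lies inside the gene span given above, so it is nearer to the start of that span.
Retnla: agaatcataaTTCACAAGAAattgctaaac
The C/EBP-type motif TTGCNNAA, found on either strand in 10.8% of promoters, came shortly after the repeat in Retnla, beginning 134 bases before the RefSeq start site. It also occurred once in C3, at chr17:57228164-57228191, where the capitals mark it.
C3: ggaaactatgTTGCGAAAttttgggcag
A match says only that these letters are present, and the windows without one say nothing of the factors.

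Ccl24 (ENSMUSG00000004814, chr5:135569937-135573049, minus strand) encodes eotaxin-2, a chemokine that attracts eosinophils through CCR3. It had 790 UMIs in 55 of 172 Zfp36_KO macrophages and 26 UMIs in 10 of 56 WT macrophages. The level was 316 CPM in Zfp36_KO and 56.8 CPM in WT, 5.57-fold higher in Zfp36_KO (3.77 to 8.58) and a log2 ratio of 2.48. The richest Zfp36_KO cells held 119, 92 and 79 UMIs, and the richest WT cells 13, 4 and 2. The WT cell with 13 Ccl24 UMIs was the one richest in Retnla, and without the pair of Retnla-rich cells the log2 ratio was 3.46. Outside macrophages it was sparse, with 13 UMIs in 4 Zfp36_KO dendritic cells and 0 in WT dendritic cells, and with 5 single UMIs in Zfp36_KO and 3 in WT ILC3-like cells. Its nearest genes in pattern were Sirpb1a, Spon1 and Ccl8 (r = 0.99).

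Arg1 (ENSMUSG00000019987, chr10:24915221-24927484, minus strand) encodes arginase 1, which turns arginine into ornithine and urea. It was the 1 member carried mainly by lymphoid cells, with 1858 UMIs in 833 Zfp36_KO cells and 1948 UMIs in 720 WT cells. ILC2-like cells held 786 UMIs in 363 of 1024 Zfp36_KO cells (130.5 CPM) and 606 UMIs in 229 of 546 WT cells (165.3 CPM). ILC3-like cells held 489 UMIs in 243 of 1117 Zfp36_KO cells (106.5 CPM) and 943 UMIs in 331 of 993 WT cells (202.0 CPM). T-cell-like cells had 0 UMIs in 18 Zfp36_KO cells and 5 UMIs in 1065 WT cells, so the ILC values stand above background. The log2 ratio was -0.34 (-0.50 to -0.19) in ILC2-like cells and -0.92 (-1.08 to -0.76) in ILC3-like cells, neither at 2-fold, and whether they differ was not tested. Both classes join clusters of unlike share. The ILC3-like clusters held 676, 365 and 76 Zfp36_KO cells and 275, 384 and 334 WT cells, and the ILC2-like clusters 833 and 191 against 354 and 192. The part of this mix in the ratios was not tested. At an equal depth of 2000 UMIs per cell, Arg1 was found in 18.2% of Zfp36_KO and 20.4% of WT ILC2-like cells, and in 15.8% of Zfp36_KO and 23.0% of WT ILC3-like cells. Macrophages held 177 UMIs in 47 Zfp36_KO cells and 40 UMIs in 8 WT cells, or 70.8 and 87.3 CPM, with a log2 ratio of -0.30 whose interval (-0.80 to 0.23) includes 0. No small group of cells carried the gene, since the richest Zfp36_KO cell held 1.56% and the richest WT cell 1.54% of the total. The nearest genes in pattern were C2, Lmo4 and Cnnm2, at r = 0.88 to 0.89 the least alike of all members' neighbours.

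Mrc1 (ENSMUSG00000026712, chr2:14229392-14332057, plus strand) encodes the mannose receptor CD206, an endocytic lectin of tissue macrophages. It had 236 UMIs in 73 of 172 Zfp36_KO macrophages (94.4 CPM) and 70 UMIs in 25 of 56 WT macrophages (152.8 CPM). The macrophage log2 ratio was -0.69 (-1.09 to -0.29), whereas over all cells, where Zfp36_KO had more macrophages, it was 1.58 (1.21 to 1.97), and 0.69 without cells with Y-linked UMIs. At equal depth 17.2% of Zfp36_KO and 19.2% of WT macrophages had a UMI, with overlapping exact binomial intervals. With cells assigned by their own C1q UMIs in place of clusters, the ratio was -0.08. Of the 157 Zfp36_KO and 78 WT cells so assigned, 137 and 53 were in the macrophage cluster. Within the cluster, the ratio was -0.58 for cells with at least 5 C1q UMIs and -0.53 without the 2 Retnla-rich WT cells. The size of the lower level therefore depends on how macrophages are defined. Rab3il1, C3ar1 and Ccl6 were nearest in pattern (r = 0.99).

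Mrc1 was also the 1 member whose longest annotated 3′ UTR holds TATTTAT, the core of the sequence bound by tristetraprolin. In GENCODE M21 transcripts (GRCm38), 27.6% of 21021 genes with a 3′ UTR have at least 1 on the transcript strand. The 3′ UTRs of the members are short, with a median of 299 bases against 961 bases over all genes, and 6 of the 9 are at most 600 bases, a length class in which 7.14% of genes have the core. The Mrc1 matches, in capitals, lie at chr2:14331676-14331704 and chr2:14331858-14331886 on the plus strand.
Mrc1 first match: attgagaactgTATTTATccacatgtaga
Mrc1 second match: ataaataatgcTATTTATtatctaattaa
Chil3, Ccl24, C3, Hp and Sirpb1c, which were higher in Zfp36_KO than in WT macrophages, have no match in the UTR searched. The same holds for Prtn3, which had UMIs in Zfp36_KO but not in WT macrophages, and for Retnla and Arg1, which were not higher. No other annotated UTR was searched, and binding was not tested.

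C3 (ENSMUSG00000024164, chr17:57203970-57228136, minus strand) encodes the central complement protein. It had 241 UMIs in 77 of 172 Zfp36_KO macrophages (96.4 CPM) and 2 UMIs in 2 of 56 WT macrophages (4.37 CPM). The log2 ratio was 4.46 (2.60 to 7.52). No Zfp36_KO cell held more than 14 UMIs, and it took 19 cells to reach 50% of them. Dendritic cells added 18 UMIs in 6 Zfp36_KO cells and 0 in WT. Trem2, Chil3 and Cfb were nearest in pattern (r from 0.976 to 0.996).

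Hp (ENSMUSG00000031722, chr8:109575128-109579172, minus strand) encodes haptoglobin, the plasma protein that binds free haemoglobin. Macrophages held 197 UMIs in 46 of 172 Zfp36_KO cells (78.8 CPM) and 0 UMIs in 56 WT cells, at least 12.0-fold higher in Zfp36_KO. Dendritic cells had 21 UMIs in 9 Zfp36_KO cells (4.24 CPM) and 4 UMIs in 2 WT cells (5.61 CPM), the only 4 in the WT library. Its nearest genes in pattern were Chil3, Sirpb1c and C3 (r = 0.97), all of them members, which were chosen with the same contrast known.

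Sirpb1c (ENSMUSG00000074677, chr3:15795145-15848528, minus strand) encodes a signal-regulatory protein beta, a family of activating receptors that pair with the adaptor Tyrobp. It was the member found in most macrophages, with 403 UMIs in 112 of 172 Zfp36_KO cells (161 CPM) and 3 UMIs in 2 of 56 WT cells (6.55 CPM), a log2 ratio of 4.62 (3.06 to 6.91). Dendritic cells of both libraries carried it at the same share, in 38 of 216 Zfp36_KO cells (17.6%) and 6 of 34 WT cells (17.6%). Their levels were 15.9 CPM in Zfp36_KO and 11.2 CPM in WT, with a log2 ratio of 0.51 whose interval runs from -0.54 to 1.77. The sign turned under other choices, to -0.38 without cells with Y-linked UMIs and to -0.54 with cells assigned by their own Plet1 and C1q UMIs (-0.58 over all deposited barcodes). Sirpb1a and Sirpb1b are close copies, so reads may be split among them or lost, and the values of each are uncertain. Fpr2 and Hp were near it in pattern (r = 0.99 and 0.97).

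Prtn3 (ENSMUSG00000057729, chr10:79874476-79883174, plus strand) encodes proteinase 3, a serine protease stored in neutrophil granules. It had 48 UMIs in 21 of 172 Zfp36_KO macrophages (19.2 CPM) and 0 UMIs in WT macrophages, too few for the 50-UMI minimum. Dendritic cells held 11 UMIs in 6 Zfp36_KO cells and 0 in WT. The 6 richest Zfp36_KO cells sufficed for 50% of the 62 UMIs in all. Its partners in granule precursors, Mpo, Elane and Ctsg, had 0 UMIs in the same macrophages. Chil3, C3 and Bvht were nearest in pattern (r from 0.96 to 0.98).

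**Figure D2:**
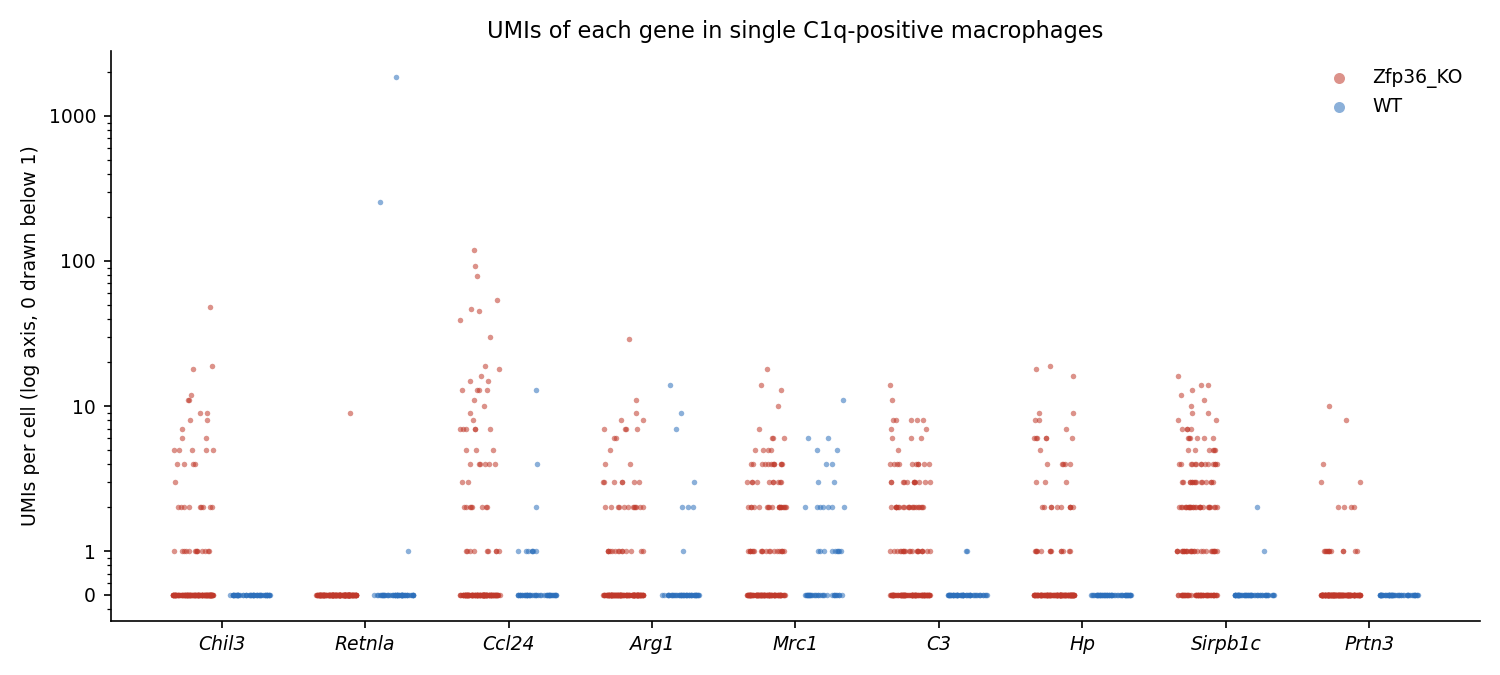
UMIs per cell (vertical log axis, with 0 drawn below 1) of each gene in single macrophages, 172 of Zfp36_KO and 56 of WT, each point a cell. Chil3, Hp and Prtn3 were at 0 in all WT macrophages, Ccl24 reached 119 UMIs in Zfp36_KO and 13 in WT, and 2 WT cells stood at 1866 and 254 Retnla UMIs.

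**Figure D3:**
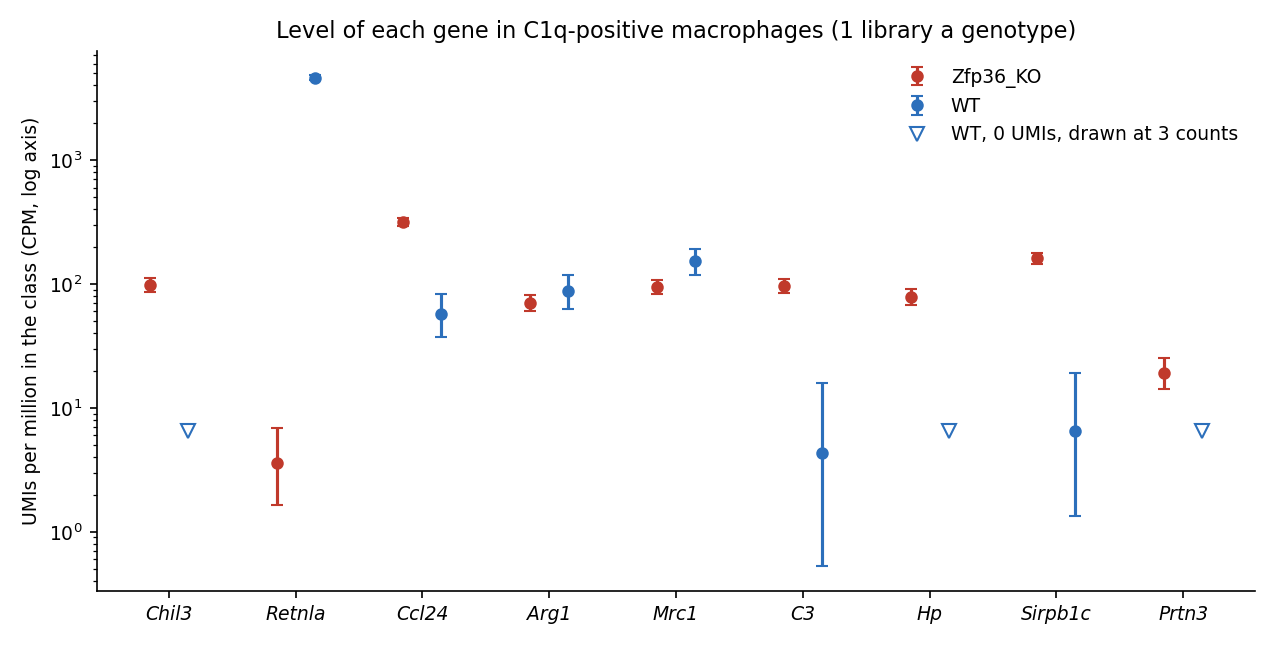
Level of each gene in macrophages (vertical log axis, CPM) in Zfp36_KO and WT, with exact Poisson 95% intervals; open triangles stand at 3 counts where WT had 0 UMIs. Arg1 had overlapping intervals, Mrc1 and Retnla were lower in Zfp36_KO, and the other 6 genes were higher.

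Zfp36_KO macrophages were deeper than WT macrophages, which raises the chance of seeing a UMI. With each cell thinned to 2000 UMIs, 163 Zfp36_KO and 52 WT macrophages remained. Sirpb1c was then found in 23.3% of Zfp36_KO and 1.92% of WT macrophages. C3, Chil3, Hp and Prtn3 were found in 16.0%, 13.5%, 11.0% and 4.91% of Zfp36_KO macrophages and in none of the WT macrophages. A count of 0 there allows up to 5.77% by the floor of 3 counts, and up to 6.85% by the exact binomial interval. That interval overlaps those of Hp (6.68% to 16.9%) and Prtn3 (2.14% to 9.44%), so neither is separated from WT by its share of cells at this depth. Ccl24 was found in 20.9% of Zfp36_KO and 13.5% of WT macrophages, a far smaller gap than in its level. Its intervals overlapped (14.9% to 27.9% and 5.59% to 25.8%).

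Among the 172 Zfp36_KO macrophages, 5 of the members tended to occur in the same cells. Chil3 was accompanied by Sirpb1c in 41 of 45 cells, by C3 in 35 and by Hp in 27, where 65.1%, 44.8% and 26.7% of all Zfp36_KO macrophages had those genes. C3 was present in 40 of the 46 Hp-positive cells and in 19 of the 21 Prtn3-positive cells. All 5 (Chil3, C3, Hp, Sirpb1c and Prtn3) were found together in 9 cells and none of them in 48, whereas 52 of 56 WT macrophages had none and 4 had 1. Ccl24 showed another distribution, with only 7 of its 55 positive cells holding Chil3 and 12 holding C3. As a description over these 172 cells, which share a library and differ in depth, Pearson r of log-scaled counts was 0.42 for Chil3 with C3 and -0.32 for Ccl24 with C3.

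Monocyte and macrophage transcripts differed between cells with and without these 5 genes. Cells with a Chil3 UMI had 167 CPM of Ly6c2, a surface protein of classical monocytes, and 860 CPM of C1qa, against 13.3 CPM and 2138 CPM in cells without. The medians of total UMIs were 12427 and 12687. For the other genes the positive cells were also the deeper ones, with a median of 15391 UMIs in cells with and 7816 in cells without C3, 15037.5 and 11056 for Hp, 15118.5 and 6077 for Sirpb1c, and 15884 and 11981 for Prtn3. C1qa was at 1053 CPM in cells with and 2183 CPM in cells without Hp, and the contrast was smaller for Sirpb1c, at 1763 and 2057 CPM. The part of depth in the joint detection was not tested. In the class as a whole Ly6c2 had 128 UMIs in 34 Zfp36_KO cells and 0 in WT, and Ccr2, the receptor that brings monocytes into tissue, was at 545 CPM in Zfp36_KO and 212 CPM in WT. The pair of Retnla-rich cells held 49 of the 97 WT Ccr2 UMIs, and the log2 ratio was 1.36 with and 2.25 without them. Other markers of the monocyte list went both ways in the class. Ms4a4c (log2 ratio 1.47) and Vcan (at least 1.10) were higher in Zfp36_KO, and Fn1 (-2.99) and F13a1 (-2.45) were lower. All WT UMIs of Fn1 and F13a1 lay in that pair. Dividing the Zfp36_KO macrophages at 5 UMIs over C1qa, C1qb and C1qc gave 35 cells below and 137 cells at or above that number, and 29 of the 35 had no C1q UMI, so the class name does not hold for them. Chil3 was at 314 CPM below and 58.0 CPM at or above 5 C1q UMIs, and Hp at 291 and 38.5 CPM. C3 was at 183 and 79.9 CPM, Sirpb1c at 334 and 128 CPM, and Prtn3 at 45.2 and 14.3 CPM. Ccl24, Mrc1 and Arg1 ran the other way, with 15.1 and 373 CPM, 32.6 and 106 CPM, and 25.1 and 79.5 CPM. Of the UMIs in Zfp36_KO macrophages, the 35 cells held 50.6% for Chil3, 58.9% for Hp, 30.3% for C3, 33.0% for Sirpb1c and 37.5% for Prtn3. Just 10 macrophages of both libraries had 3 to 6 C1q UMIs, near the dividing value.

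Restricting the comparison to macrophages with at least 5 C1q UMIs, 137 of Zfp36_KO and 53 of WT, left the directions of all 8 measured members as they were. Chil3 then had 122 UMIs in Zfp36_KO and 0 in WT, Hp 81 and 0, C3 168 and 1, and Sirpb1c 270 and 3. The floors fell, to log2 ratios of at least 3.05 for Chil3 and at least 2.46 for Hp. Leaving out macrophages with a Cd3e UMI, which kept 169 Zfp36_KO and 38 WT cells, also left all 8 directions as they were.

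**Figure D4:**
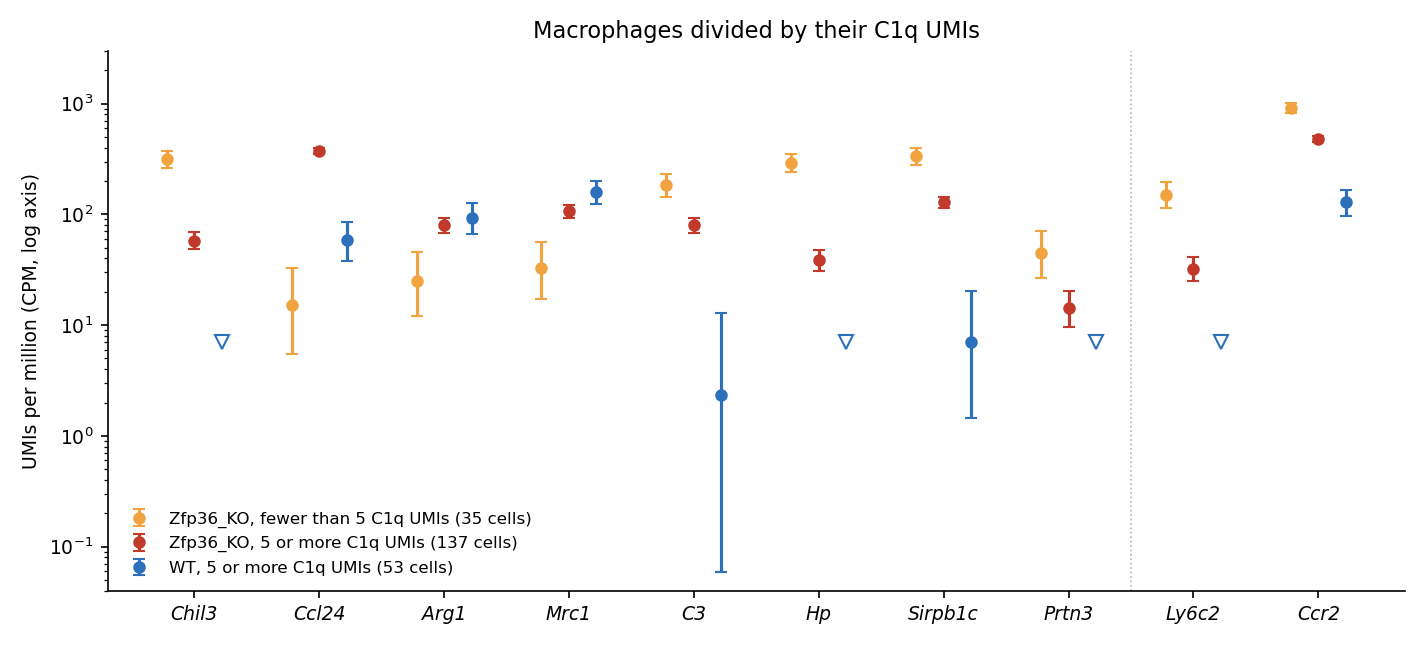
Levels (vertical log axis, CPM) of 8 members and of the monocyte genes Ly6c2 and Ccr2 in Zfp36_KO macrophages with fewer than 5 C1q UMIs (35 cells), Zfp36_KO macrophages with 5 or more (137 cells) and WT macrophages with 5 or more (53 cells), with exact Poisson 95% intervals and open triangles at 3 counts for 0 UMIs. Chil3, C3, Hp, Sirpb1c and Prtn3 followed Ly6c2 and Ccr2 across the Zfp36_KO cells, and Ccl24, Arg1 and Mrc1 did not. Other markers of the monocyte list are not drawn.

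A finer clustering (resolution 2) gave 2 macrophage clusters. The cluster with Tgfbi and Fcgr4 among its leading genes, with 136 Zfp36_KO and 22 WT cells, held 246 Chil3, 241 C3, 198 Hp and 48 Prtn3 UMIs in Zfp36_KO, and 0, 2, 0 and 0 in WT. The other, led by Apoe and with Adamdec1 and Ms4a7 among its leading genes, had 37 Zfp36_KO and 34 WT cells and no C3, Hp or Prtn3 UMI in either library. Ccl24 was higher in Zfp36_KO in both, with 255 CPM against 58.1 CPM in WT in the Tgfbi cluster (4.56 CPM, 1 UMI in 20 cells, without the pair of Retnla-rich cells), and 1082 CPM against 55.1 CPM in WT in the Apoe cluster.

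Genes that signal from IL-4 and IL-13 were largely level in macrophages. Of 13 measured at 20 or more UMIs, 2 were 2-fold or more higher in Zfp36_KO (9.42% of 9190 genes were) and 0 lower (4.55%), with a median log2 ratio of 0.28. Pparg, a lipid-sensing nuclear receptor gene, had 34 UMIs in Zfp36_KO and 2 in WT, with a counting interval that includes no change. Il4ra, the shared receptor chain, was at 113 CPM in Zfp36_KO and 89.5 CPM in WT. Ppargc1b, a coactivator of PPAR and oxidative metabolism, was at 18.0 and 2.18 CPM, with a log2 ratio of 3.04 (0.49 to 8.38).

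Other alternative activation genes looked lower at first, with 7 of 15 lower in Zfp36_KO macrophages (4.55% of all genes), 3 higher (9.42%), and a median log2 ratio of -0.82. Fn1, which encodes fibronectin, was at 58.8 CPM in Zfp36_KO and 467 CPM in WT. Yet all 214 WT Fn1 UMIs and all 22 WT F13a1 UMIs, the coagulation factor XIII chain, lay in the pair of Retnla-rich cells. The same pair held 54 of the 57 WT UMIs of the ribonuclease gene Ear2, 104 of the 111 of the chemokine gene Ccl9 and 180 of the 201 of Ccl6. Without them 7 of 14 measured genes were higher in Zfp36_KO and 1 lower, where 9.75% and 4.57% of 9165 genes were, and the median was 0.74. Mgl2, a galactose-type lectin gene, kept its direction, at -1.52 with and -1.35 without them. Trem2, a lipid receptor gene, with 58 UMIs in Zfp36_KO and 1 in WT, and Tgm2, transglutaminase 2, with 746 and 40 UMIs, were higher either way.

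**Figure D5:**
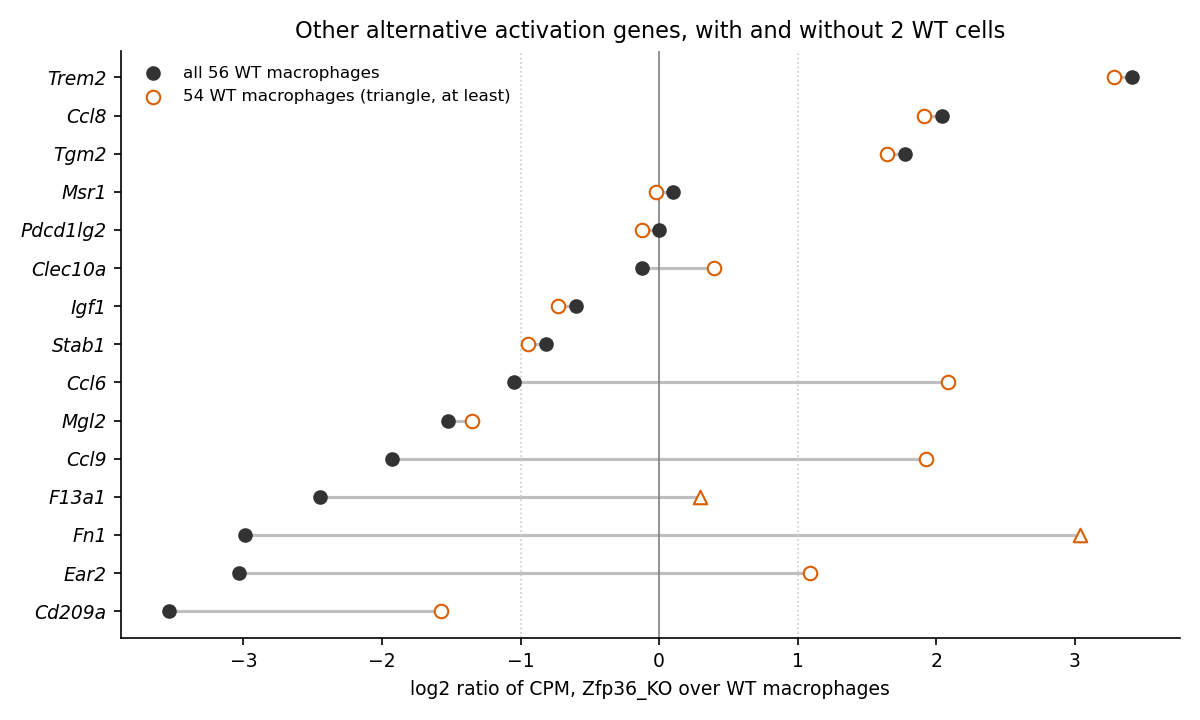
log2 ratio of CPM, Zfp36_KO over WT macrophages (horizontal axis), for 15 other alternative activation genes with all 56 WT macrophages (filled) and without the 2 WT cells richest in Retnla (open, triangles for lower bounds where WT fell to 0 UMIs). Fn1, F13a1, Ear2, Ccl9 and Ccl6 changed sign when the 2 cells were left out.

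Those cells passed the filters with 2.78% and 2.57% mitochondrial UMIs and doublet scores of 0.09 and 0.10. They had 83 and 4 C1q UMIs, 549 and 343 Cd74 UMIs, and no UMI of Cd3e, Gata3, Plet1 or Krt8. Cd209a, on the dendritic cell marker list like Plet1, had 0 and 13 UMIs. That whole list summed to 122 UMIs in these 2 cells and to 656 UMIs in the other 54 WT macrophages.

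Complement genes other than C3 gave 4 higher (9.42% of all genes) and 1 lower (4.55%) of 15 in macrophages, with a median log2 ratio of -0.07. Without the pair of Retnla-rich cells, 5 were higher and 1 lower, and the median was 0.30. The intervals of C2 (26 UMIs in Zfp36_KO, 2 in WT) and of C5ar2, the lower gene (27 and 10 UMIs), included no change. Cfb, factor B of the alternative pathway, had 96 UMIs in 48 Zfp36_KO cells and 2 UMIs in 1 WT cell, a log2 ratio of 3.14 (1.24 to 6.20). C4b, of the classical pathway, had 51 UMIs in Zfp36_KO and 1 in WT. The acute phase and granule list had 16 genes, of which 4 were measured and all 4 were higher (9.42% of all genes). Saa3, serum amyloid A, had 89 UMIs in 21 Zfp36_KO cells and 0 in WT, and Slpi, a protease inhibitor, 110 UMIs in 15 Zfp36_KO cells and 0 in WT. Slpi was also a leading gene of the plasma-cell-like cluster, whose markers were higher in Zfp36_KO macrophages. Whether its UMIs came from macrophages was not tested. Il1b was at 3486 CPM in Zfp36_KO and 1563 CPM in WT, and Fpr2, a formyl peptide receptor, at 31.6 and 4.37 CPM.

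Against the same 9.42% of all genes higher and 4.55% lower, 2 of 8 genes of the SIRP family and partners were higher and 1 lower, with a median log2 ratio of 0.12. Sirpb1b had 74 UMIs in 49 Zfp36_KO macrophages and 4 UMIs in 4 WT macrophages, and Sirpb1a 59 UMIs in 42 and 4 UMIs in 2, and both bear the uncertainty of close copies. Hcst, an adaptor also used by lymphocytes, was lower, at 116 CPM in Zfp36_KO and 286 CPM in WT. Of 8 measured ligand genes in macrophages, again beside 9.42% and 4.55% of all genes, Il1a was higher and Csf2, Il10 and Ifng lower, the last with 10 UMIs in Zfp36_KO and 31 UMIs in 8 WT cells, in a class where 18 WT cells had Cd3e. Without the pair of Retnla-rich cells 2 ligand genes were higher and 4 lower. Of 4 measured chemokine receptors Ccr2 was higher (9.42% of all genes) and 0 were lower (4.55%).

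In ILC2-like cells, the possible source of type 2 cytokines, 2 of 7 measured ligand genes were 2-fold or more lower in Zfp36_KO (1.97% of 10046 genes with at least 20 UMIs were) and 0 higher (4.58%), with a median log2 ratio of -0.61. Il5, the eosinophil growth factor, was at 14.0 CPM in Zfp36_KO and 51.6 CPM in WT, a log2 ratio of -1.89 (-2.27 to -1.51). Csf2, which encodes the myeloid growth factor GM-CSF, was at 375 CPM in Zfp36_KO and 1006 CPM in WT. Il4 was at 236 CPM in Zfp36_KO and 360 CPM in WT and Il13 at 142 and 158 CPM, neither at 2-fold. The class joins 2 clusters of unlike share. The one led by Areg, Csf2 and Il13 held 191 Zfp36_KO and 192 WT cells, and the other 833 and 354. Whether this mix contributes to the lower sums was not tested. In dendritic cells the acute phase list had 1 of 4 genes higher (8.8% of 9638 genes with at least 20 UMIs were) and 0 lower (4.11%). That gene was Saa3, with 26 UMIs in Zfp36_KO and 1 in WT, a log2 ratio of 1.90 whose interval (-0.70 to 7.26) includes no change.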

How the data were processed

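The deposited values are raw UMI counts per gene and cell barcode. Per the file headers the authors ran Cell Ranger 3.1.0, and the submitters' processing notes name build mm10. The annotation release they used is not given in the sources used here. Barcodes with under 500 genes or over 10% mitochondrial UMIs were left out, as were 48 Zfp36_KO and 45 WT doublets at a Scrublet score of 0.25 or more (scanpy 1.11.5). That common score was set after automatic thresholds marked 7 and 28. Library barcodes overlapped in 2 sequences. Clusters came from 2000 variable genes without the members, 30 components, 15 neighbours and leidenalg 0.10.2 (resolution 1). A cluster was named when at least 3 markers of a list passed (10% of cells, 2-fold), with a lead of 3 over other lists, a margin set after seeing the data. Some clusters stayed unnamed (431 Zfp36_KO and 328 WT cells). UMIs were summed per class and library and given as CPM, since cells are not replicates and no test was possible. Log2 ratios have exact binomial intervals from the split of UMIs (scipy 1.17.1), shares exact Clopper-Pearson intervals. A gene at 0 was set to 3 counts, and fewer than 50 UMIs (20 for lists) gave no ratio call. Ratios and intervals were run on simulated Poisson sums, which follow the model that the intervals assume. This checks the computation only, since the uneven spread over cells and differences between mice were not simulated. The members and gene lists were chosen with earlier results of these data known. Named were all members and 3 nearest genes per member. Of each list at most 4 genes were named (2-fold, interval without 0, ranked by the end nearest 0). Il4ra, Pparg, C2, C5ar2, Ccl6, F13a1, Mgl2, Trem2 and Tgm2 in macrophages were named after their values were seen. So were Il4 and Il13 in ILC2-like cells, Saa3 in dendritic cells, and the markers given beside results. Some genes that the rule names are not reported here. Alternatives were other filters, classes, weights and depths. The alternatives on parts of the macrophages (without the 2 Retnla-rich cells, with 5 C1q UMIs, without Cd3e) were added after seeing the data.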

Additional observations from a re-analysis of the deposited data

How the results depend on the processing

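Of 211 values of 19 log2 ratios under the alternatives, 174 stayed the same, 36 moved, and 1 ratio of 2-fold or more reversed. The same meant within the counting interval of the reported ratio, where it had one. Ratios set at the floor have no such interval, so their labels say less. The alternative thinned to 2000 UMIs is not among the 211, and there 12 values moved and 8 stayed the same. The reversal was Retnla in macrophages without the 2 WT cells richest in it, at 0.59, and the count of members lower in Zfp36_KO macrophages then fell to 0. That count was 2 when cells with Y-linked UMIs were left out, where Mrc1 was at -1.05. Over all cells the lower count was 0 without the 10 richest cells of each library. The counts of higher members stayed within 1.5 times under every alternative run. No paired analysis was possible because there is 1 library per genotype. Leaving out a replicate was not run for the same reason. Depth limits the WT side of the macrophage comparison, which rests on 56 cells with 458094 UMIs.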
